A study of Mus musculus with 10 samples.

Results

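Marcks, Marcksl1, Gap43, Dcx, Stmn1, Stmn2, Tubb2b, Sox4, Sox11 and Dpysl3 are 10 genes of axon growth and immature neurons, chosen by name out of the 26301 genes counted in spinal cord from mice of the inbred C57BL/6 strain. Each was found through its Entrez Gene identifier: 17118 (Marcks), 17357 (Marcksl1), 14432 (Gap43), 16765 (Stmn1), 20257 (Stmn2), 73710 (Tubb2b), 13193 (Dcx), 22240 (Dpysl3), 20677 (Sox4) and 20666 (Sox11). The labels name no treatment or allele. RNA was sequenced in 10 libraries: 2 male and 2 female libraries at 4 weeks of age, and 3 male and 3 female libraries at 8 weeks. No source used here says whether a library came from its own animal or from pooled cords, so each p-value reflects library-to-library spread alone, and that spread may be technical. Of the 10 genes 9 had enough counts to be tested, and Stmn1 did not.

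Growing axons are steered by their tips, the growth cones, in which actin filaments and microtubules are assembled and taken down under the control of signals at the membrane. Marcks, Marcksl1 and Gap43 sit on the inner face of the plasma membrane, bind actin or its regulators, and are released or altered when protein kinase C or calmodulin acts on them. Stathmins take tubulin out of microtubules, doublecortin (Dcx) and the collapsin response mediator Dpysl3 act on microtubules in young neurons, and Tubb2b is a β-tubulin of the developing brain. Sox4 and Sox11, with Sox12, are the SoxC transcription factors, which turn on neuronal genes in newborn neurons. In the grown cord most of these genes are known to be low, though Gap43 and Stmn2 stay on in many mature neurons and Marcks is made by most cell types, so RNA of a whole cord mixes sources, and fewer cells of a type cannot be told apart from less RNA per cell.

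The genes fall into related pairs, and the stretches in which the relatives are most alike are shown because they are the shared functional domains and also bear on how reads are counted. Marcks and Marcksl1 are related through the basic effector domain, where protein kinase C and calmodulin act. Their most similar 90-base coding stretch, which lies there, runs from base 431 to 520 of the Marcks coding sequence and from 254 to 343 of that of Marcksl1, counted from the A of the start codon, and 30 of the 90 bases differ (capitals).
Marcks: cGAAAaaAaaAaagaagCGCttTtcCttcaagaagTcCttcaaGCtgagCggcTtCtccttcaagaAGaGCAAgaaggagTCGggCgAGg
Marcksl1: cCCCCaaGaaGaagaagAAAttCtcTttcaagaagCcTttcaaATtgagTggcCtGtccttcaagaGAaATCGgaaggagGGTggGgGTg

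Sox4 and Sox11 share the high mobility group box, the domain that binds DNA. In their most similar stretch, bases 181 to 270 of Sox4 and 151 to 240 of Sox11, both within the part coding for that box, 6 of 90 bases differ (capitals).
Sox4: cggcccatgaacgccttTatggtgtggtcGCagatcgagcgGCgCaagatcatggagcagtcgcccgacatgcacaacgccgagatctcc
Sox11: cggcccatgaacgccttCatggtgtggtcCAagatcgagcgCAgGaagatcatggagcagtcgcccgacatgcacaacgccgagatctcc

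Stmn1 and Stmn2 share the stathmin domain, which binds tubulin, and their most similar stretch covers bases 215 to 304 of Stmn1 and 317 to 406 of Stmn2, with 11 differing bases (capitals).
Stmn1: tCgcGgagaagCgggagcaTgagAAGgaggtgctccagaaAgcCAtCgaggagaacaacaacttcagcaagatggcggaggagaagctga
Stmn2: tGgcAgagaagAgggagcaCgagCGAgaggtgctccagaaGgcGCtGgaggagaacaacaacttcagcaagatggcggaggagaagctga

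Tubb2b and its neighbour in the family Tubb2a are alike in 96.49% of 1338 coding bases, and bases 397 to 486 do not differ at all. Stmn1 has a processed pseudogene, Gm11223, that matches 99.78% of its 450 coding bases. All of these coding sequences are from GENCODE M21 (build GRCm38), since no genome of mm9, the build the counts were made on, was used here. Cut into 50-base windows, 39.33% of the Tubb2b transcript, 36.5% of that of Stmn1 and 54.09% of that of Sox4 occur in another annotated gene. For Sox4 that gene is Gm26735, a long non-coding RNA, with windows matched on either strand. The strand setting and the annotation of the counting are not given, so how reads of the shared stretch were assigned is not known. The share was 1.61% for Marcksl1, 0.29% for Dcx, 0.18% for Marcks and 0 for Gap43, Stmn2, Sox11 and Dpysl3.

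A library held 8453559 to 11594610 counts over 18407 to 18884 detected genes. Levels are counts scaled to a common library size (CPM) by the TMM method, which also allows for composition, and differences are log2 fold changes with a standard error (SE) from edgeR's quasi-likelihood F test, called at a Benjamini-Hochberg adjusted p below 0.05 over all 15540 genes tested. The spinal cord list, of Hox, motor neuron and glycine neuron genes, summed to 296 to 435 CPM in every library. Genes of skeletal muscle, a tissue beside the cord, summed to 476 to 1923 CPM at 4 weeks and 39.9 to 147 CPM at 8 weeks, none of the 12 at 0, with the highest sum in male 4-week library 1. That library also lay farthest out on the first principal component, at −47.6 where the others lay between −21.1 and 21.5. Adrenal cortex genes summed to 92.8 and 127 CPM in the male 4-week libraries and to at most 11.1 CPM elsewhere, and lung genes to 856.5 and 98.7 CPM in male 8-week libraries 2 and 3 against 0.835 to 7.03 CPM in the others.

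Levels were compared between genes per kilobase (kb) of transcript. Stmn2 led with 232.8 ± 10.35 CPM per kb (SD, n = 10), and Gap43 followed with 94.9 ± 7.49 and Marcksl1 with 82.3 ± 25.1. Marcks at 49.2 ± 6.95 CPM per kb and Tubb2b at 44.9 ± 5.41 lay within their spread of each other. The remaining genes were low: Dpysl3 at 7.20 ± 1.15, Sox4 at 2.82 ± 0.45, Dcx at 2.05 ± 0.481, Sox11 at 1.25 ± 0.157 and Stmn1 at 0.336 ± 0.161 CPM per kb. The Stmn1 value rests on 35 counts. Whether its RNA is that low cannot be told from these counts. How reads that also match its pseudogene were counted is not known. Such reads concern a part of the transcript, as 36.5% of its 50-base windows occur in another gene, and their part in the low count was not tested. Dcx and Sox11, known from newborn neurons, were thus near the bottom of this order. Neighbours in the order whose ranges over libraries overlapped were Gap43 and Marcksl1, Marcksl1 and Marcks, Marcks and Tubb2b, and Sox4 and Dcx. These means, SDs and ranges pool both ages, so those of Marcksl1 hold its age difference, and its place in the order depends on age. In CPM not divided by length, Marcksl1 lay above Gap43 at 4 weeks (164 to 194.5 against 115.8 to 141.8). At 8 weeks it lay below Gap43 (91.11 to 109.7 against 136.1 to 147.4).

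Between 4 and 8 weeks, in the membrane and actin group, Marcksl1 fell by 0.80 (log2) and Marcks by 0.34, and Gap43, the third protein kinase C substrate of the group, was 0.15 higher without passing the test. Of the transcription factors Sox4 fell by 0.35 while Sox11 was 0.17 higher and not called. Of the 4 microtubule genes tested, Stmn2, Tubb2b, Dcx and Dpysl3, 0 were called. In all, 3 of 9 tested genes were lower and 0 higher with age, against 5.01% of all 15540 genes called lower, 1.61% called higher and 6.62% called in either direction. The median log2 fold change was −0.21 over the 9 genes and 0.0066 over all genes. Of the 9 values 5 were negative and 4 positive, and the median is the value of Tubb2b, which was not called.

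**Figure D1:**
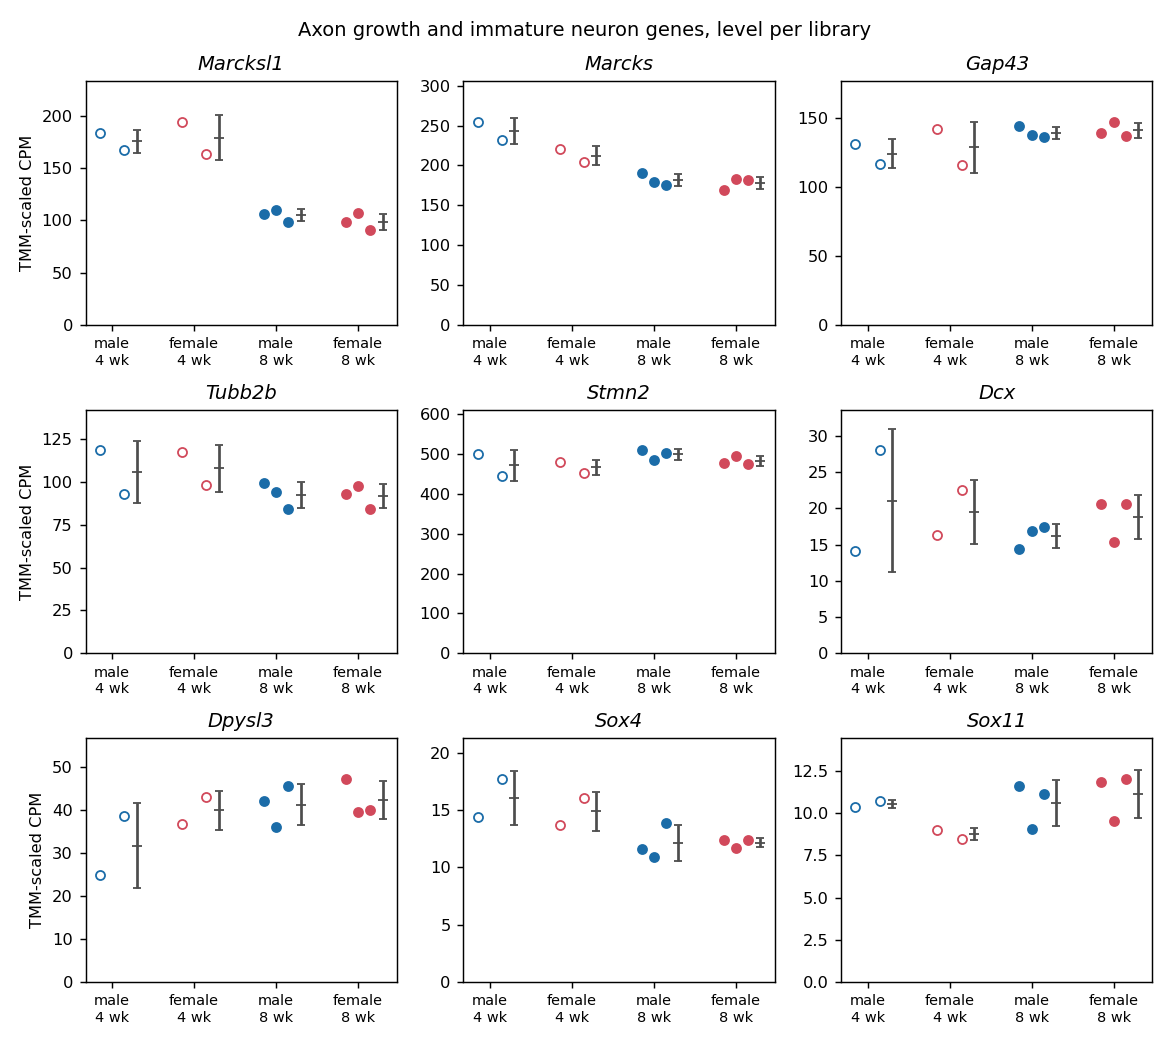
TMM-scaled CPM (vertical axes, each starting at 0) of the 9 tested genes in the 10 libraries, by group on the horizontal axis; points are libraries (open at 4 weeks, filled at 8 weeks), and to their right the dash is the group mean and the bar its SD (n = 2 for a sex at 4 weeks, n = 3 at 8 weeks). For Marcksl1 and Marcks all 6 libraries of 8 weeks lie below all 4 of 4 weeks, while the Dcx and Dpysl3 points at 4 weeks are spread widely.

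Marcksl1 had the largest difference. It stood at 183.6 and 167.6 CPM in the male and 194.5 and 164 CPM in the female 4-week libraries, and at 106.4, 109.7 and 98.75 CPM in the male and 98, 106.7 and 91.11 CPM in the female 8-week libraries. Every 8-week library was thus below every 4-week library, in each sex, with a gap between 109.7 and 164 CPM. The mean went from 177.4 ± 14.23 CPM (SD, n = 4) to 101.8 ± 7.02 (n = 6), a log2 fold change of −0.80 (SE 0.07, adjusted p = 6.57e-06 by edgeR), or 0.574 of the 4-week level. The call held in each fit that left out a library, with values between −0.84 and −0.73. It was lost (−0.50, adjusted p = 0.110) when a skeletal muscle score, the average over 12 muscle genes of their centred log2 levels, entered the model. That score separates the ages, at 1.11 to 3.06 in the 4-week and −2.18 to −0.629 in the 8-week libraries, so muscle RNA and age cannot be told apart in that fit.

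Marcks, the founding member of its family, fell less. Its male 4-week libraries held 255 and 231.5 CPM and its female ones 220.5 and 204.3 CPM. At 8 weeks the male libraries held 190.7, 179.5 and 175.1 CPM and the female ones 169.6, 183 and 181.7 CPM. The ages again did not overlap, and the highest library was male 4-week library 1, the one richest in muscle genes. From 227.8 ± 21.27 CPM (n = 4) to 179.9 ± 7.22 (n = 6), Marcks fell by 0.34 (SE 0.06, adjusted p = 0.00211 by edgeR). With both male 4-week libraries left out the difference was −0.25 (adjusted p = 0.0690), and with the muscle score −0.17 (adjusted p = 0.548). The part of the muscle and adrenal RNA in the difference was not tested. Of all 15540 genes, 4.84% had 8-week libraries all below the 4-week libraries, as Marcks and Marcksl1 did, 2.89% had them all above, as none of the 9 did, and 7.73% had either.

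Gap43, a protein of growth cones and presynaptic terminals, was not called. Its 4-week libraries held 131.5 and 117 CPM in males and 141.8 and 115.8 CPM in females, and its 8-week libraries 136.1 to 147.4 CPM with a median of 138.5. Only 2 of 6 lay above all of the 4-week libraries, and female 4-week library 1 was higher than 4 of the 8-week libraries. The difference was 0.15 (SE 0.06, adjusted p = 0.179, 95% interval 0.0033 to 0.298). Gap43 is also made by sensory ganglion neurons, whose 9 markers summed to 16.7 to 26.5 CPM at 4 and 19.4 to 49.9 CPM at 8 weeks, with 0 of 6 tested called by edgeR, DESeq2 or limma-voom and 2 at an unadjusted p under 0.05. It is made by adrenal medulla cells as well, of whose markers 3 of 7 tested were lower. That list summed to 560 to 622 and 577 to 642 CPM, nearly all of it Chga and Chgb, which neurons make too, while the more specific Dbh and Pnmt reached at most 1.81 and 3.75 CPM. The part of these cells in the Gap43 level was not tested.

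Marcksl1 and Marcks thus differed in how far they moved, and the log2 ratio of the first to the second, taken within each library, shows this without any scaling between libraries. At 4 weeks it was −0.474 and −0.466 in males and −0.181 and −0.317 in females. At 8 weeks it was −0.842, −0.710 and −0.826 in males and −0.791, −0.778 and −0.996 in females. All 6 libraries of 8 weeks were below all of 4 weeks, and the mean went from −0.36 ± 0.14 to −0.82 ± 0.10 (SD), a difference of −0.46. This pair and that of Sox4 and Sox11 were chosen after their values were seen, so the ratios are a description with no test. The share of other gene pairs whose ratios also separate the ages was not counted.

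**Figure D2:**
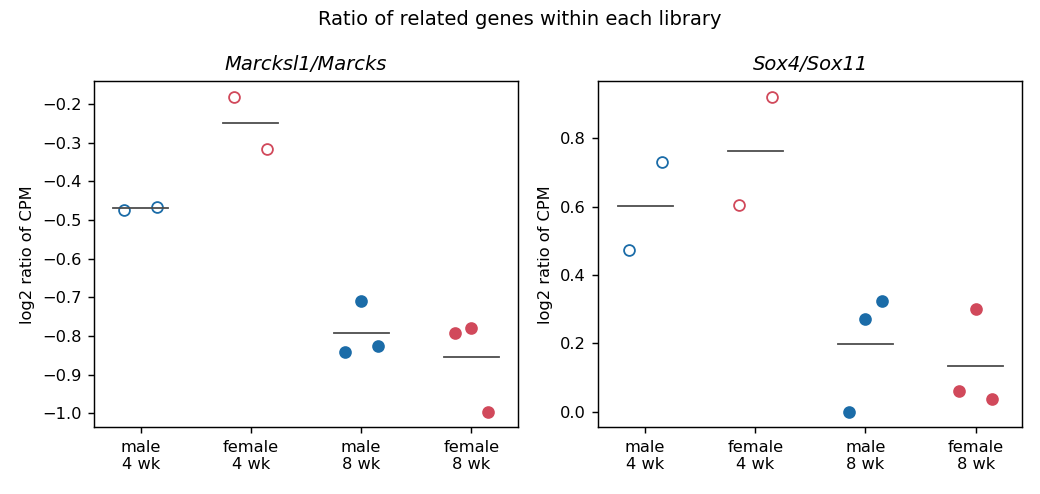
Log2 ratio of CPM within a library (vertical axes, which do not start at 0) for Marcksl1 over Marcks and for Sox4 over Sox11, by sex and age (horizontal axis); each point is a library, open at 4 weeks and filled at 8 weeks, and lines are group means. In both panels the 6 libraries of 8 weeks lie below the 4 of 4 weeks, at −0.996 to −0.710 against −0.474 to −0.181 for the first pair and 0 to 0.32 against 0.47 to 0.92 for the second.

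The transcription factors were far less abundant. Sox4 held 14.41 and 17.78 CPM in the male and 13.7 and 16.1 CPM in the female 4-week libraries. It held 11.65, 10.92 and 13.93 CPM in the male and 12.39, 11.71 and 12.38 CPM in the female 8-week libraries. All 8-week libraries but male library 3 were below all 4-week libraries. The mean went from 15.5 ± 1.82 CPM (n = 4) to 12.16 ± 1.02 (n = 6), a log2 fold change of −0.35 (SE 0.10, adjusted p = 0.0485 by edgeR), and the value was negative in each alternative fit. The call, though, was at the edge of the threshold and was lost in 14 of 20 alternatives. It was lost with DESeq2 (adjusted p = 0.0750), limma-voom (0.0525), RLE scaling (0.0502), the averaged within-sex contrasts (0.0631) and the muscle score (−0.79, 0.114), and without both male 4-week libraries (0.345) or male 8-week libraries 2 and 3 (0.137). It was also lost on leaving out male 4-week library 2 (0.126), female 4-week library 2 (0.137), male 8-week library 1 (0.102) or 2 (0.112), or female 8-week library 1 (0.0855), 2 (0.0882) or 3 (0.0840).

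Sox11 held 10.38 and 10.72 CPM in the male and 9.01 and 8.5 CPM in the female 4-week libraries, and 9.04 to 12.06 CPM with a median of 11.39 at 8 weeks. Of the 8-week libraries 4 lay above all of 4 weeks, and the difference of 0.17 (SE 0.12) had an adjusted p of 0.434 by edgeR and a 95% interval from −0.10 to 0.451. The log2 ratio of Sox4 to Sox11 was 0.473 and 0.73 in the male and 0.604 and 0.922 in the female 4-week libraries. At 8 weeks it was 0, 0.272 and 0.324 in males and 0.0606, 0.299 and 0.0378 in females. The mean went from 0.68 ± 0.19 to 0.17 ± 0.15 (SD), a difference of −0.52 with groups that did not overlap. Over the 10 ways to leave out a library it lay between −0.59 and −0.44, and that of Marcksl1 to Marcks between −0.50 and −0.41.

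Sox12, the remaining SoxC gene, is not among the 10 and was measured as a relative. It held 22.6, 22.05, 27.76 and 24.2 CPM in the male and female 4-week libraries and 18.94, 19.96, 20.67, 17.45, 16.84 and 16.54 CPM in those of 8 weeks. The ages did not overlap, and Sox12 fell by 0.39 (SE 0.09, adjusted p = 0.0207 by edgeR), close to the change of Sox4. The call was lost without female 4-week library 1 (−0.30, adjusted p = 0.0709) or 2 (0.0617), or female 8-week library 1 (0.0547) or 3 (0.0547).

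The microtubule group showed no called difference. Stmn2, the neuronal stathmin and the most abundant of the 10 genes, held 444.2 to 500.3 CPM at 4 weeks and 475.5 to 510.4 CPM at 8 weeks, and its difference was 0.07 (SE 0.05, adjusted p = 0.483, 95% interval −0.05 to 0.181). Stmn1, the stathmin of dividing and immature cells, had 35 counts over all 10 libraries, 0.105 to 0.618 CPM, which allows no comparison of ages. Other genes of the cytoskeleton list were as empty, namely Tuba1b with 24 counts, Tuba1c with 3 and Tmsb4x with 9, all of which are abundant in most tissues. The share of 50-base windows found in other genes was 83.06% for Tuba1b and 60.99% for Tuba1c but 0 for Tmsb4x. Tuba1a, of the same list, had a share of 75.54% and yet 33132 counts. How reads with several matches were counted is not given in the sources used here.

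Tubb2b held 118.5 and 92.9 CPM in the male and 117.6 and 98.3 CPM in the female 4-week libraries, against 84.16 to 99.26 CPM with a median of 93.46 at 8 weeks. In each sex the first 4-week library was high and the second lay near or within the 8-week range. The difference was −0.21 (SE 0.08, adjusted p = 0.136). Without male 4-week library 2 it was −0.28 and called (adjusted p = 0.0304), and with the muscle score it was 0.30. Tubb2a, with which Tubb2b shares bases, gave −0.15 (SE 0.06, adjusted p = 0.134).

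Dcx, which marks migrating neurons, had the largest log2 spread between replicates among the 9. Its male 4-week libraries held 14.07 and 28.06 CPM, the lowest and the highest of all 10, and its female ones 16.34 and 22.6 CPM. At 8 weeks it held 14.36 to 20.59 CPM with a median of 17.18, so that every 8-week library lay between the male 4-week libraries. The difference was −0.23 (SE 0.17, adjusted p = 0.482, 95% interval −0.63 to 0.173), and 0.04 without male 4-week library 2. Dpysl3 was alike in this, at 24.79 and 38.78 CPM in the male and 36.77 and 43.2 CPM in the female 4-week libraries against 36.06 to 47.4 CPM at 8 weeks, with a difference of 0.22 (SE 0.12, adjusted p = 0.317).

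The spread between replicates was set against that of the 500 genes nearest in level. The within-group SD of Dcx was 0.35 (log2) where the median of its 500 neighbours was 0.15, and 94.6% of them were lower. For Dpysl3 the SD was 0.24 against 0.11, with 95.8% lower, and for Tubb2b 0.16 against 0.09, with 84.2% lower. The other 6 genes lay between 32.4% and 65.6%. Dcx, Dpysl3 and Tubb2b were thus the genes with the widest spread for their level.

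The 4-week pairs also differed along transcript length. In the male 4-week pair library 1 minus library 2 had a median of 0.27 (log2 CPM) over 963 genes with transcripts under 1500 bases (counting genes whose mean reached 4 log2 CPM) and −0.28 over 2232 genes with transcripts over 5000 bases, and in the female pair 0.22 and −0.19. Dcx, with a transcript of 9074 bases, differed by −0.99 in the male and −0.46 in the female pair, and Dpysl3, with 5479 bases, by −0.64 and −0.23. Tubb2b, with 2182 bases, differed by 0.35 and 0.26. Sox11, with 8311 bases, did not follow the trend, at −0.05 and 0.08. Nor did Marcks, with 4048 bases, at 0.14 and 0.11 where the medians of 3000 to 5000 bases were −0.07 and −0.02. Sox4, in that class with 4795 bases, differed by −0.30 and −0.23. The 8-week libraries differed along length too, by the class medians of their centred log2 CPM. In male library 1 these were 0.12 under 1500 bases and −0.08 over 5000 bases, and in male library 3 −0.09 and 0.06. In females they were 0.01 and 0.03 in library 2, and −0.13 and 0.11 in library 3. The age difference itself had a median of −0.05 in the shortest class and 0.07 in the longest.

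**Figure D3:**
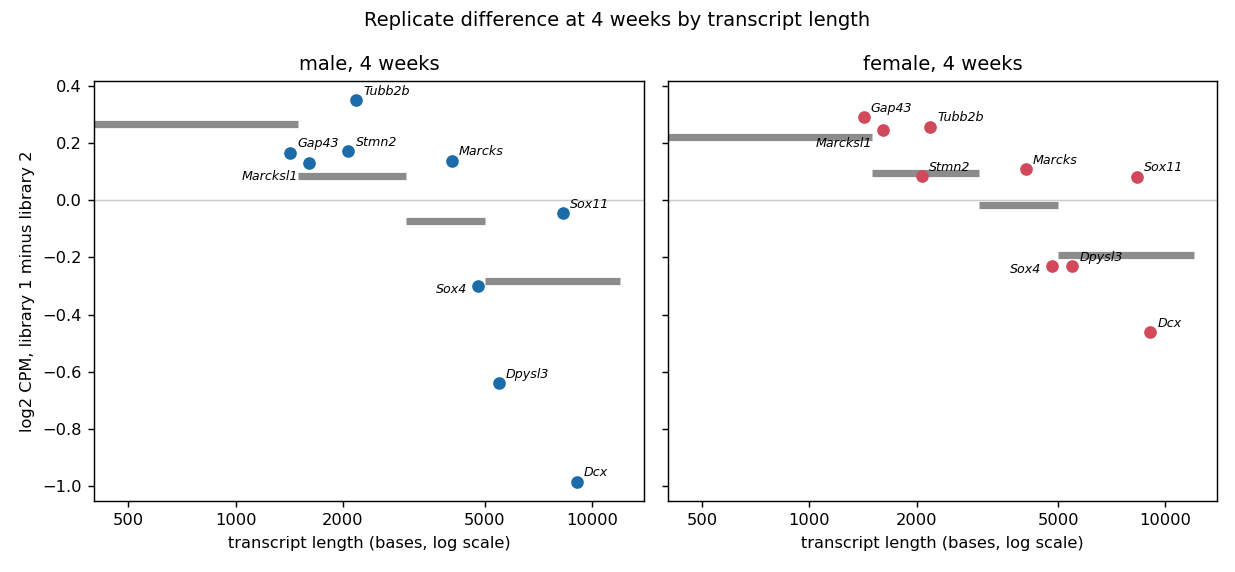
Log2 difference between library 1 and library 2 of the 4-week pair (vertical axis) against transcript length in bases (horizontal log axis), males left and females right; points are the 9 tested genes, and grey bars are medians over all genes of a length class with a mean of at least 4 log2 CPM. The class medians run from 0.27 to −0.28 in males and from 0.22 to −0.19 in females, and Dcx lies lowest of the labelled genes in both.

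With a length trend removed from each library, an alternative chosen after seeing the data, 5 of the 9 genes were called against 3. Marcksl1 (−0.77), Marcks (−0.36, adjusted p = 0.000553) and Sox4 (−0.38, adjusted p = 0.00816) were lower as before. Tubb2b joined them (−0.19, SE 0.06, adjusted p = 0.0363), and Gap43 was called higher (0.19, SE 0.04, adjusted p = 0.00438). The estimates of Tubb2b and Gap43 moved by 0.02 and 0.04, and their SE went from 0.08 to 0.06 and from 0.06 to 0.04. In that fit 1767 of 14464 genes with a known length were called. Dcx (−0.29, adjusted p = 0.108), Dpysl3 (0.18, adjusted p = 0.247), Stmn2 (0.09, adjusted p = 0.137) and Sox11 (0.10, adjusted p = 0.650) were not.

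Within males 2 of the 9 genes were called, both lower, against 2.39% of all genes called lower, 0.837% called higher and 3.22% called either way in that comparison. Marcksl1 fell by 0.74 (SE 0.09, adjusted p = 0.00148) and Marcks by 0.42 (SE 0.07, adjusted p = 0.00928), and Sox4 stood at −0.41 (adjusted p = 0.163), Dcx at −0.40 (0.464) and Dpysl3 at 0.37 (0.303), none of them called. The Marcks call was lost without male 4-week library 1 (−0.34, adjusted p = 0.0628), and without male 4-week library 2 Dpysl3 was called (0.74, adjusted p = 0.0231). Leaving out male 8-week libraries 2 and 3, which leaves 1 library at that age assumed to vary like the other groups, 0 of the 9 and 15 of all genes were called.

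Within females Marcksl1 alone was called, with 1.22% of all genes called lower and 1.45% called either way. It fell by 0.86 (SE 0.09, adjusted p = 0.000907) and was called in each fit that left out a library. Marcks stood at −0.25 (SE 0.07, adjusted p = 0.146), Sox4 at −0.30 (0.449), Sox11 at 0.35 (0.407) and Tubb2b at −0.23 (0.467), with Gap43, Dcx, Stmn2 and Dpysl3 between −0.05 and 0.13. Whether the sexes differ in this is the question of the interaction, in which Marcks was not called.

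The interaction, which asks whether the age difference is the same in both sexes, called 0 of the 9 genes and 0.0129% of all genes. None had an unadjusted p under 0.05, and DESeq2 and limma-voom called 0 as well. The largest estimates, male minus female, were −0.34 for Sox11 (SE 0.22, adjusted p = 0.970, 95% interval −0.88 to 0.202) and −0.34 for Dcx (SE 0.35, adjusted p = 0.985, 95% interval −1.19 to 0.51).

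Between the sexes over both ages 0 of the 9 genes were called, by edgeR, DESeq2 or limma-voom, with 0 at an unadjusted p under 0.05 and 0.0901% of all genes called, 0.0644% as higher in males and 0.0257% as lower. The largest estimates, male minus female, were −0.15 for Dpysl3 (SE 0.12, adjusted p = 0.735, 95% interval −0.42 to 0.130) and 0.10 for Marcks (SE 0.06, adjusted p = 0.681, 95% interval −0.03 to 0.227).

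The family relatives of the 10 genes were set beside them, and most were not called. Of 16 relatives tested 2 were lower and 0 higher with age, with a median of 0.01. These were Sox12 and Stmn4, a stathmin of the nervous system, which went from 193 ± 11.86 CPM (n = 4) to 163 ± 12.79 (n = 6) and fell by 0.24 (SE 0.06, adjusted p = 0.0301 by edgeR). In single libraries Stmn4 held 198.7, 180.3, 206.5 and 186.3 CPM at 4 weeks and 150.3 to 183.6 CPM at 8 weeks, where female library 2 overlapped the younger range. Its call was lost in 9 of 20 alternatives, and its sign was reversed in 1 more. It was lost when library 1 of the 4-week males (adjusted p = 0.101) or females (0.0934) was left out. The same held for library 2 (0.0695) or 3 (0.0670) of the 8-week males, and library 1 (0.0694) or 3 (0.0669) of the 8-week females.

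Other close relatives were not called. Stmn3, another neuronal stathmin, differed by 0.08 (adjusted p = 0.582), Basp1, a membrane protein related to Gap43 in function, by 0.10 (0.348), Dclk1, a kinase with doublecortin domains, by 0.10 (0.366), and Dpysl2, another collapsin response mediator, by −0.13 (0.126). With the length trend removed Stmn3 was called higher (0.13, adjusted p = 0.0197) and Dpysl2 lower (−0.16, adjusted p = 0.0453).

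**Figure D4:**
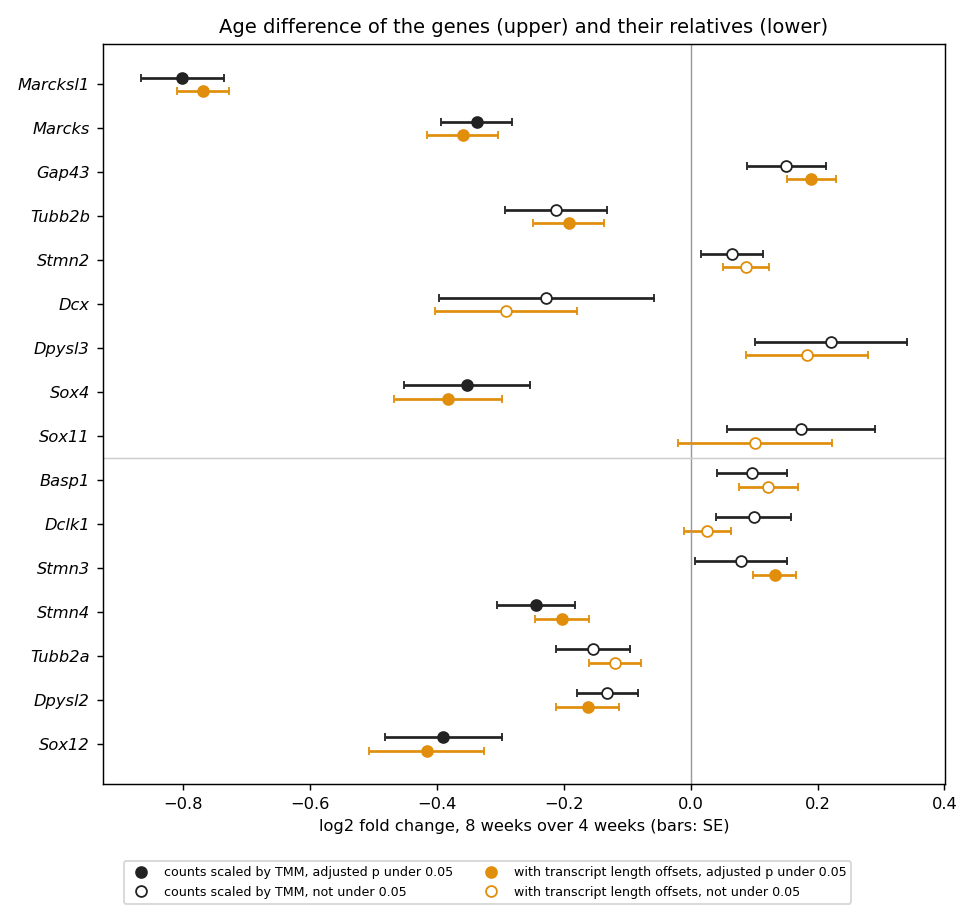
Log2 fold change of 8 over 4 weeks (horizontal axis) with SE bars for the 9 tested genes and, below the line, 7 relatives; black is the TMM-scaled fit, orange the fit with transcript length offsets, and filled points have an adjusted p under 0.05. Marcksl1 stands apart at −0.80, and Tubb2b and Gap43 are filled in the length fit alone, on opposite sides of 0.

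Other genes of axon growth were taken from lists. Of 19 actin and microtubule genes 16 were tested, and edgeR, DESeq2 and limma-voom each called 0, with 9 at an unadjusted p under 0.05 and a median of 0.07. With length offsets 3 of them were called. Of 15 genes of immature neuron identity and adhesion 13 were tested, 1 was higher and 0 were lower, with a median of 0.08, where DESeq2 called 2 and the length fit 3. That gene was Cntn2, an adhesion protein of axons that is also found beside nodes of myelinated fibres, which went from 356.3 ± 44.6 CPM (n = 4) to 428.7 ± 35.05 (n = 6), a difference of 0.27 (SE 0.06, adjusted p = 0.0199 by edgeR). The call was lost in 6 of 20 alternatives. These include leaving out library 1 of the 4-week males (adjusted p = 0.0539) or females (0.0543) or library 2 of the 8-week males (0.0501). Of 13 regeneration-associated genes, which neurons turn on after injury, 11 were tested and edgeR, DESeq2 and limma-voom called 0, with 0 at an unadjusted p under 0.05.

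Of 14 inhibitors of axon growth and their receptors 13 were tested and 2 were lower, with a median of 0.03. Mag, a myelin protein that stops growing axons, fell by 0.41 (SE 0.05, adjusted p = 0.000191 by edgeR), from 1626 ± 73.4 CPM (n = 4) to 1224 ± 69.5 (n = 6). Ncan, a proteoglycan of the matrix around neurons, fell by 0.32 (SE 0.06, adjusted p = 0.00381), from 119 ± 4.01 to 95.5 ± 6.84 CPM. Of 10 genes of protein kinase C and calmodulin, which act on Marcks, Marcksl1 and Gap43, all were tested and 1 was higher: Prkca, a conventional kinase isoform, at 0.32 (SE 0.08, adjusted p = 0.0259), with a median over the list of 0.11. DESeq2 and the length fit each called 3 of this list, and 3 and 4 of the inhibitors. The Prkca call was lost in 7 of 20 alternatives. Among these were the fits without library 1 of the 4-week males (adjusted p = 0.0711) or females (0.0632), or library 2 of the 8-week males (0.0506) or females (0.0597). Ncan was not called with both male 4-week libraries left out (−0.27, adjusted p = 0.102). With the muscle score Mag stood at −0.19 (adjusted p = 0.417) and Ncan at −0.56 (0.0643), and Sox12 (0.398), Stmn4 (0.861), Cntn2 (0.950) and Prkca (0.604) were not called either.

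The profiles most like those of the called genes were found by the root mean square difference of centred log2 CPM over the 10 libraries, among 8931 or 8932 genes with a mean of at least 4 log2 CPM. For Marcksl1 they were Rab33a (0.09), Mog (0.09) and Cldn11 (0.09), the latter a pair of genes of the myelin sheath. For Marcks they were Itgb1 (0.05), Pigc (0.06) and Rdh11 (0.06), and for Sox4 Lamc1 (0.08), Map4k4 (0.08) and Ptbp3 (0.08). Likeness here is a description of 10 libraries that share their age groups.

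Marcksl1, Marcks and Sox4 are also made by cells other than young neurons, and some marker lists of other cells moved with age while others moved little. Of 10 markers of newly forming oligodendrocytes 7 were lower and 1 higher, with a median of −0.63. Their sum was 1364 to 1428 CPM at 4 and 1320 to 1428 CPM at 8 weeks, most of it Bcas1 (796 to 1019 CPM), the member called higher. Of 11 markers of oligodendrocyte precursors 3 were lower, with sums of 911 to 990 and 818 to 867 CPM. Of 11 tested cell division genes 8 were lower, with a median of −1.07 and sums of 65.7 to 115 and 39.8 to 53.5 CPM. Of 10 markers of mature neurons 1 was higher and 0 lower, with sums of 9345 to 10300 and 10390 to 11140 CPM. Of 8 fibroblast and collagen genes 4 were lower, with a median of −0.81 and sums of 958.5 to 1899 and 447.8 to 856 CPM. Of 6 markers of neurons in contact with cerebrospinal fluid, cells that keep some immature neuron features, 1 was higher and 0 lower, with sums of 26.4 to 29.7 and 34.8 to 47.9 CPM. In the lists of microglia, astrocytes and endothelial cells 1 of 10, 1 of 8 and 0 of 8 were lower and 0 higher. Their medians were −0.07, 0.01 and 0.04. The part of any of these cells in the changes of Marcksl1, Marcks and Sox4 was not tested.

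The promoters of Marcksl1 and Sox4, the called genes with an entry in the RefSeq table (build GRCm38.p6), are shown from 250 bases before to 50 after the start, because both genes fell. In that of Marcksl1, chr4:129513331-129513630 on the plus strand, capitals mark 2 GC boxes (GGGCGG on either strand). A GC box, in any number, was found in 35.7% of all 32851 promoters of the same length.
Marcksl1: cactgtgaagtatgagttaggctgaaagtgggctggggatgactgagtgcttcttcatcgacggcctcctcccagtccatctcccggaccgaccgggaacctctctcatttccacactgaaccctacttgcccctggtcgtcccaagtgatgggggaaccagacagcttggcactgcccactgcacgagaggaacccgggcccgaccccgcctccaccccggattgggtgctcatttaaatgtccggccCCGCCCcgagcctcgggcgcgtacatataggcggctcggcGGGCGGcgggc

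In that of Sox4, chr13:28953650-28953949 on the minus strand, capitals mark 4 CCAAT boxes (CCAAT on either strand). A CCAAT box, in any number, was found in 37.4% of all promoters, and the share with as many as 4 was not counted.
Sox4: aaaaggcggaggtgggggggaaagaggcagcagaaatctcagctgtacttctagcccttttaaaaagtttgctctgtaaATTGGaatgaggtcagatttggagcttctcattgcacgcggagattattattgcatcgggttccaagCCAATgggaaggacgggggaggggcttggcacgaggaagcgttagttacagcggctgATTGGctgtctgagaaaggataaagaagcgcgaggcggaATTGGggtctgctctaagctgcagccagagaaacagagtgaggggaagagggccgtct

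The Marcksl1 promoter had a GC content of 63.67% and 22 CpG dinucleotides, and that of Sox4 52.0% and 12, where the medians of all promoters were 52.67% and 7. Sox11, which was not called, had 58.67%, 21 CpG dinucleotides, 2 GC boxes and 1 CCAAT box. Both Dcx promoters had 3 CpG dinucleotides and 1 TATA box (TATAAA, found in any number in 13.6% of promoters). Marcksl1 had 1 CCAAT box as well, and Sox4 had 0 GC boxes.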

How the data were processed

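Whole spinal cord RNA was counted per gene in 10 libraries, and the authors deposited raw counts for 26301 Entrez identifiers, not normalized. TopHat2 2.1.0, featureCounts and build mm9 were used, per the submitters' processing notes, and the sources used here give no strand, multi-mapping or annotation settings. Symbols came from a RefSeq table and matched all 10 genes and all listed genes. edgeR 4.0.16 in R 4.3.3 (TMM, filterByExpr with minimum count 10 and total 15) tested 15540 genes with a two-sided quasi-likelihood F test: a model of sex plus age (7 residual degrees of freedom) gave both main effects, and a model of the 4 groups (6) gave the interaction and the contrasts within a sex. The SE is the absolute log2 fold change over the square root of F, and 95% intervals use it with those degrees of freedom. Alternatives were DESeq2 1.42.0, limma-voom 3.58.1, RLE scaling, no filter, a muscle covariate, left-out libraries, a replicate block and length offsets. Values for untested genes and summed levels are CPM of total counts. Lengths are of the longest RefSeq-linked GENCODE M21 transcript, known for 14464 tested genes. The 10 genes, the lists and the tests were chosen with earlier results of these data known. Named in the text are the 10 genes, their closest relatives, list genes past the threshold (at most 5 per list) and the 3 likest profiles. Replicates differed beyond sampling noise (chi-square over degrees of freedom 1.92 to 11.2), so each library was 1 sample. The tests were tested on simulated data.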

Additional observations from a re-analysis of the deposited data

How the results depend on the processing

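Over both sexes the count of called genes among the 9 tested was 3. It was 1 with the muscle score as a covariate (Dcx, −1.35, adjusted p = 0.0474; 74 genes in all against 1028), 1 without both male 4-week libraries (Marcksl1; 393 in all), 5 with length offsets and 2 to 3 when 1 library was left out. Within males it was 2, and 1 with the muscle score (Dcx), 0 without male 8-week libraries 2 and 3, 1 with male libraries alone (Marcksl1; 175 genes in all), 4 with length offsets and 1 to 3 when 1 library was left out. Within females it was 1, and 0 with the muscle score and 1 in each fit that left out a library; genes called in all ranged from 62 to 394 over those fits against 226. The interaction and sex comparisons gave 0 of the 9 in every alternative run, with 0 to 2 and 9 to 60 genes called in all.

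The muscle score reversed, over both sexes, Tubb2b (0.30), Sox11 (−0.11), Dpysl3 (−0.41), Dclk1 (−0.16), Stmn4 (0.057) and Dpysl2 (0.017), within males Tubb2b (0.35), Sox11 (−0.30) and Dpysl3 (−0.26), and within females Tubb2b (0.26) and Dpysl3 (−0.53); the score separates the ages and the cause was not tested. Basp1 was −0.0081 without both male 4-week libraries. Sox11 within males, 0.0095, was −0.033 with length offsets. Leaving out 1 library turned the sign of Dcx over both sexes (range −0.36 to 0.039), within males (−0.78 to 0.21), within females (−0.26 to 0.21) and in the interaction (−0.72 to 0.27), and of Tubb2b (−0.35 to 0.0013) and Sox11 (−0.055 to 0.11) within males and Dpysl3 within females (−0.024 to 0.21).

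Deviations of same-numbered replicates correlated between −0.21 and 0.24 over the pairs of groups, with both signs, so the numbers were not taken to pair the libraries, though the 4-week males and females correlated at 0.21 and differed alike along transcript length. With the replicate block 3, 2 and 1 genes were called for age over both sexes, within males and within females, 0 for the interaction and 0 for sex, and the genes called in all were 808, 478, 213, 2 and 38. The block ended the Stmn4 call (adjusted p = 0.0819) and turned Sox11 within males to −0.053. At these depths 1 CPM is about 10 counts, so Stmn1 could not be compared. Single values were checked by their gap to the nearest value as a share of the range of their age. None of the 9 tested genes had a value past the limit in the 18 sets of 4 or 6 libraries. With so few libraries only an extreme gap passes, so values can lie apart unmarked. Dpysl3 in male 4-week library 1, at 24.79 CPM against 36.77 to 43.2 CPM in the other 4-week libraries, was not marked.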
